A study of Mus musculus with 7 samples.

Results

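Mitochondrial protein import genes were followed in CD8+ T cells from mouse spleens that were treated with small extracellular vesicles (sEVs). They were chosen by name as the rows of the deposited counts whose symbol starts with Timm or Tomm, followed by a digit or, for *Timmdc1*, by a d, or is *Grpel1*, *Pam16*, *Dnajc19*, *Chchd4*, *Samm50*, *Pmpca*, or *Pmpcb*, with a mean of 5 or more counts over 7 libraries. Of 55367 genes in the file, 34 matched by name and 30 had enough counts. Among the 4 that did not, *Tomm6* had a mean of 2.43 counts, *Tomm6os* 0.571, *Timm8a2* 0.286, and *Tomm20l* was at 0 in every library, whereas *Timm8a1*, the least abundant of the 30, had a mean of 39.4. The 30 comprised 9 genes listed as outer membrane (the Tomm genes and *Samm50*) and 21 genes of the inner membrane, the intermembrane space, and the matrix. *Tomm34*, a cytosolic helper of import, is counted with the 9 outer membrane genes throughout.

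The cells came from spleens of Foxp3 YFP/cre mice, whose strain carries YFP and Cre at *Foxp3*, and were treated with sEVs for 48 hours. The labels give flow sorting and 100 μg/mL of sEVs in both groups, whereas the general methods describe magnetic selection and amounts of vesicles set by those found in the respective spleen. If the amounts differed between the groups, amount and origin of the vesicles cannot be told apart. The 4 libraries of the control group were treated with HCME-sEVs, taken from the spleens of healthy mice. The 3 libraries of the other group were treated with LME-sEVs, isolated from leukemic spleens of *TCL1* mice, in which a human *TCL1* transgene drives a chronic lymphocytic leukemia of B cells. The labels give these groups, whereas a figure legend of the study gives their sizes the other way round, and the groups here follow the labels. The general methods describe CD8+ T-cell cultures on anti-CD3 but do not tie them to these libraries, and both groups received vesicles, so that no culture without sEVs enters here. The comparison asks how the vesicles of the leukemic spleen change CD8+ T cells relative to those of the healthy spleen. No label ties libraries to separate animals, so the p-values measure the spread between these libraries, which may be technical.

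Most mitochondrial proteins are encoded in the nucleus, made in the cytosol, and imported. The TOM complex of the outer membrane receives them, TIM23 passes those with a presequence into the matrix or inner membrane, TIM22 inserts carrier proteins, and small TIM chaperones escort hydrophobic proteins through the space between the membranes. T cells that are activated enlarge their mitochondria, whose proteins arrive by this route.

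Libraries held between 3689831 and 5030522 counts, and levels are given as CPM, counts relative to the library total after edgeR's TMM scaling. Because the reads are 3′ tags counted by molecular identifier, CPM do not depend on transcript length, although levels of different genes also depend on how well each 3′ end is annotated. At this depth, 3 counts corresponded to between 0.58 and 0.804 CPM, a limit that covers counting error only. All 9 T-cell and CD8 markers were detected, with a summed level of 3851 to 3900.1 CPM with HCME-sEVs and 4092 to 4519 CPM with LME-sEVs, while *Cd4* and *Foxp3* together stayed at or below 0.58 CPM. Among marker lists of other cells, the summed levels of B-cell and myeloid genes did not overlap between the groups and were higher with LME-sEVs, while the others overlapped. They were 245 to 286 CPM with HCME-sEVs and 328 to 358 CPM with LME-sEVs for 10 B-cell genes, 6.73 to 9.12 CPM with HCME-sEVs and 12.8 to 16.6 CPM with LME-sEVs for 9 myeloid genes, 8.88 to 33.8 CPM with HCME-sEVs and 24.2 to 44.3 CPM with LME-sEVs for 7 basophil and mast-cell genes, and 65.3 to 167 CPM with HCME-sEVs and 141 to 188 CPM with LME-sEVs for 7 erythroid and platelet genes. The level of 3 NK-cell genes was 175 to 199 CPM with HCME-sEVs and 159 to 175 CPM with LME-sEVs. Nearly all of it was *Eomes* (means of 189 and 167 CPM), whereas *Ncr1* and *Klrb1c* had means of 0.143 and 3 counts per library. Of the defining B-cell markers, *Cd79a* had a mean of 0.286 counts per library, *Ms4a1* 5.14, and *Cd79b* 15.4, and none of the lists had a gene at 0 throughout. Most of the B-cell sum was *Ighm*, with a mean of 241 CPM with HCME-sEVs and 313 CPM with LME-sEVs, whereas *Ms4a1* (1.36 and 0.999 CPM), *Pax5*, *Blnk*, and *Cd79a* had lower means with LME-sEVs. Single markers also rose at an FDR under 0.05 in the fit of edgeR, beside the change of the import genes. They were *Cd3e* and *Cd3g* of T cells (log2 fold changes 0.36 and 0.49), *Ighm* and *Cd74* (0.38 and 0.54), *Prg2* and *Mcpt8* of basophils (3.92 and 1.43), and *Hba-a1*, *Pf4*, and *Ppbp* of erythroid cells and platelets (0.90, 0.81, and 0.89). *Prg2* had 0 to 2 counts in the controls (mean 0.375 CPM), under the limit of 3 counts. Of the 6 basophil and mast-cell genes tested, 2 passed. *Fcer1a*, *Gata2*, and *Cd200r3* were above 0 without passing, and *Cpa3* was below 0 (-0.26, FDR = 0.721). Of the 9 T-cell and CD8 markers 2 passed, and *Lck* was below 0 (-0.029, FDR = 0.854). Of the 5 B-cell genes tested 2 passed, and *Ms4a1* was below 0 (-0.38, FDR = 0.742). Of the 5 erythroid and platelet genes tested 3 passed. *Hbb-bs* was near 0 (-0.012, FDR = 0.981) and *Hba-a2* did not pass (0.45, FDR = 0.464). The part of these cells in the results below was not tested, and in bulk samples fewer cells of a type cannot be told apart from less RNA per cell.

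The promoters of the 5 import genes that passed the test below, and of *Timm17b*, the paralog of 1 of them, are shown because the results turn on these genes. They were taken from RefSeq on GRCm38.p6, which held a promoter for 27 of the 30 genes (none for *Tomm40l*, *Tomm7*, and *Timm21*). Each runs 5′ to 3′ from 250 bases before the RefSeq start of the gene to 50 bases after it, and capitals mark a match to any of 3 motifs on either strand: the E-box CACGTG bound by MYC and its relatives, the NRF1 motif, and the ETS motif CCGGAAG. Matches on opposite strands may overlap each other. They lie at chr1:135313688-135313987 (minus strand), chrX:7899086-7899385 (plus strand), chr14:32201842-32202141 (minus strand), chr7:28311997-28312296 (minus strand), chr4:45108064-45108363 (minus strand), and chr6:91473374-91473673 (minus strand).
Timm17a: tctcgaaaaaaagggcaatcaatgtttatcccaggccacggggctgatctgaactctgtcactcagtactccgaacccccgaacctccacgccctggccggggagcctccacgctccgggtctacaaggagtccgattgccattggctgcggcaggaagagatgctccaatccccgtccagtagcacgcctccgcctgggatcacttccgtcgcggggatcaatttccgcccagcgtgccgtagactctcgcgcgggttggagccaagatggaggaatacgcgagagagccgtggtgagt
Timm17b: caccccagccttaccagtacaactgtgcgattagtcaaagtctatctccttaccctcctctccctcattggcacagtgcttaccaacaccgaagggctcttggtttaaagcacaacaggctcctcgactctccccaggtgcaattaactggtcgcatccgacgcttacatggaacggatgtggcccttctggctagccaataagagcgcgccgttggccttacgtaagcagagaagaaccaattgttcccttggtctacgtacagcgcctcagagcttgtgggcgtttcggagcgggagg
Timm23: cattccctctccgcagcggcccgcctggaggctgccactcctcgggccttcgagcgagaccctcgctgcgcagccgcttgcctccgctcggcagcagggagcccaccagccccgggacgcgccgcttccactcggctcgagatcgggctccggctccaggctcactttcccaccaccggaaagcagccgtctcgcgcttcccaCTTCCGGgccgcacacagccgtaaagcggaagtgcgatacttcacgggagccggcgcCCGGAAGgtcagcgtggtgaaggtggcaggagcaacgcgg
Timm50: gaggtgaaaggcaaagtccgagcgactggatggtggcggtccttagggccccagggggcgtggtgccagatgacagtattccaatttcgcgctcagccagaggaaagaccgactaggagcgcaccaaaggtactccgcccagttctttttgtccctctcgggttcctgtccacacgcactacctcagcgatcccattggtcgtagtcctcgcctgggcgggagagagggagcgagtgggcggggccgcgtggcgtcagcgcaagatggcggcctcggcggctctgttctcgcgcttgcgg
Tomm5: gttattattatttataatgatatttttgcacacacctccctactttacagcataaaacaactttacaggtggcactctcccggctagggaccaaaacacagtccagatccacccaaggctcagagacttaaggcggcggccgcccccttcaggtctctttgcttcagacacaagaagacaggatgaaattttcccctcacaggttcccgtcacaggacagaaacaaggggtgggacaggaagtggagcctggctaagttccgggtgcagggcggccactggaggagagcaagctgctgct
Chchd4: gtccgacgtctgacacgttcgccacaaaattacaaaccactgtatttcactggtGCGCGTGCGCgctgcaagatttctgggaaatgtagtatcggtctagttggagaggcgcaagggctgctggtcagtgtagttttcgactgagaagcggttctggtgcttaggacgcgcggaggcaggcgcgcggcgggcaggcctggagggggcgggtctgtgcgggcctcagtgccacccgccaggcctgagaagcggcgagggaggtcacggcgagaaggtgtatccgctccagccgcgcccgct
The promoter of *Timm23* held 2 ETS matches and that of *Chchd4* held 1 NRF1 match, whereas these letters were not found in the other 4. For *Timm17b*, the letters tested after the RefSeq start were not found in its GENCODE transcripts, whereas they were found for the other 5. This check does not measure how far the RefSeq and GENCODE starts lie apart, so it does not rank the starts. For *Chchd4*, on the minus strand, the GENCODE gene begins at 91473546, before the RefSeq start. Over the 29 promoters of the 27 genes, 13 (44.8%) held the ETS letters, against 18.3% of 11761 promoters of tested genes. The NRF1 letters were in 4 (13.8%) against 10.3%, and the E-box in 4 (13.8%) against 9.96%. Several promoters of the import genes held the ETS letters more than once, with 3 matches each for *Tomm22* and *Timm10* and 4 for *Timmdc1*. These are matches of letters and were not tested for a difference.

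Import genes were on the whole slightly less abundant with LME-sEVs, and those that passed the test belonged to 3 machines: *Timm23*, *Timm17a*, and *Timm50* of the TIM23 translocase, *Chchd4* of the intermembrane space, and *Tomm5* of TOM. Of 30 genes, 5 (16.7%) were lower at an FDR under 0.05 and 0 were higher, by the quasi-likelihood test of edgeR, adjusted by the Benjamini-Hochberg method over 12623 genes. DESeq2 called 4 lower and 0 higher, and limma-voom 6 lower and 0 higher. By the same call 5.21% of all genes tested were lower and 3.75% higher, 8.96% in all. Among the 8146 genes whose mean count lay within the range of the import genes, 6.73% were lower and 4.6% higher, 11.3% in all. At an unadjusted p under 0.05, 10 import genes were lower and 1, *Timm17b*, was higher, where 12.3% of all genes tested were lower and 10.4% higher. The changes were small: fold changes on the log2 scale, given as LME-sEVs over HCME-sEVs, ranged from -0.48 for *Timm10* to 0.26 for *Timm29*. The cutoff of the study adds a log2 fold change beyond 1, and 0 import genes passed it. Of all genes tested 1.28% did, and of those within the range of counts 0.417%. A value below 0 was found for 25 of the 30 genes, against 48.5% of all genes tested and 52.7% of those within the range of counts. The median was -0.17 for the 9 outer membrane genes, with 9 below 0, and -0.17 for the 21 others, with 16 below 0, beside 0.0096 for all genes.

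**Figure D1:**
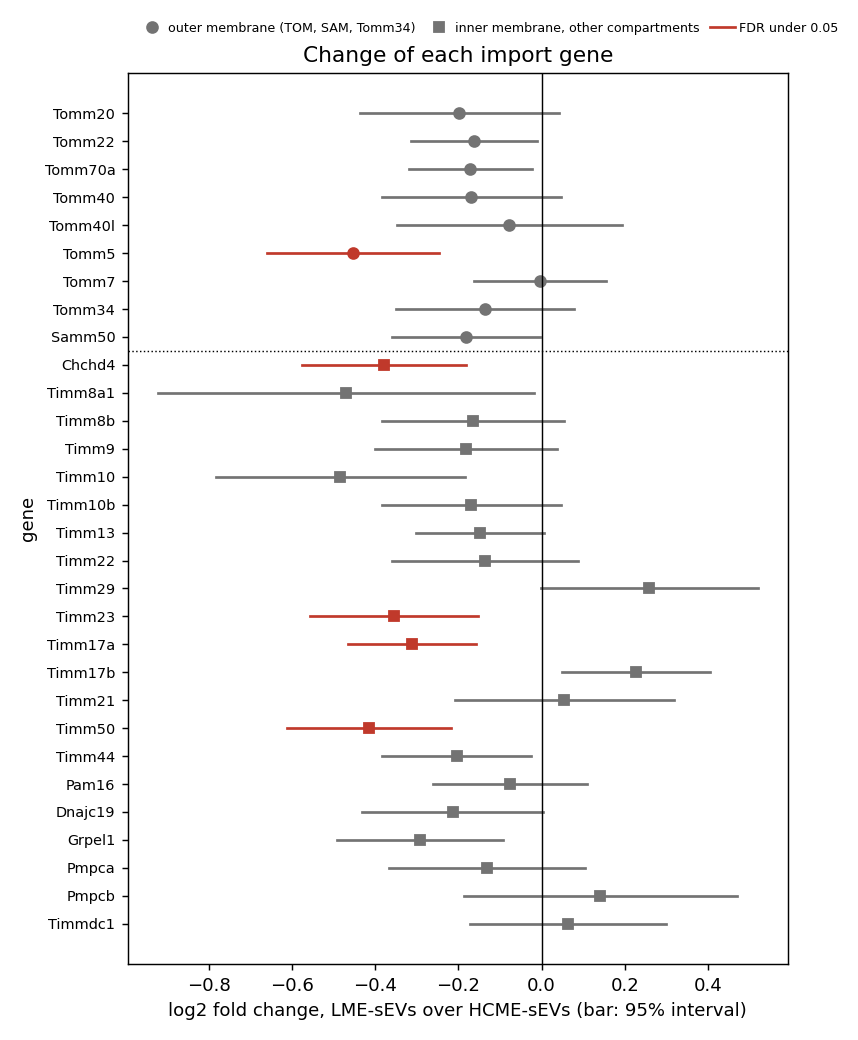
Log2 fold change of each of the 30 import genes (x axis, LME-sEVs over HCME-sEVs) with an approximate 95% interval. The interval takes a standard error derived from the test statistic and a normal distribution, so it is narrower than the test implies. For *Samm50* and *Timm8a1* it lies below 0, although their unadjusted p was 0.060 and 0.055 (quasi-likelihood test of edgeR). Circles are outer membrane genes, squares are all others, and red marks an FDR under 0.05: *Tomm5*, *Chchd4*, *Timm23*, *Timm17a*, and *Timm50* lie left of 0, while *Timm17b* and *Timm29* have the highest values.

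The number of genes past the threshold depended on single LME-sEV libraries, the fold changes much less so. Without LME-sEV library 2, 0 import genes passed (8 were lower at an unadjusted p under 0.05), and without LME-sEV library 3 only *Chchd4* did. Calls over all genes also became fewer in those fits, with 1.77% and 2.08% of genes lower. When each library was left out in turn, the log2 fold change ranged from -0.53 to -0.39 for *Tomm5*, from -0.43 to -0.28 for *Chchd4*, from -0.40 to -0.30 for *Timm23*, from -0.34 to -0.28 for *Timm17a*, and from -0.47 to -0.37 for *Timm50*. An FDR under 0.05 was kept in 5 of these 7 fits by *Tomm5*, *Timm17a*, and *Timm50*, in 4 by *Chchd4*, and in 2 by *Timm23*.

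**Figure D2:**
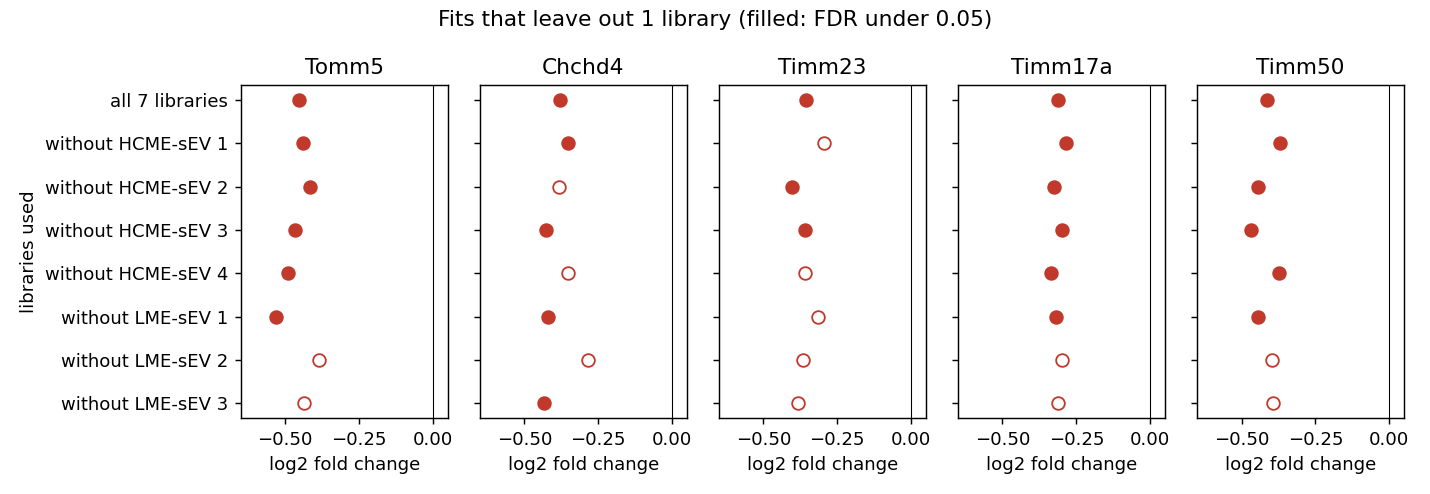
Log2 fold change (x axis) of the 5 genes with an FDR under 0.05, over all 7 libraries and with each library left out in turn (y axis). Filled points have an FDR under 0.05 in that fit and open points do not; all points lie below 0, and all are open without LME-sEV library 2.

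Of the receptors of TOM, which bind precursor proteins on the cytosolic side, 0 of 3 passed with edgeR, DESeq2, or limma-voom, and 2 had an unadjusted p under 0.05. *Tomm20*, the main receptor for presequences, was measured at 33.1, 40.2, 37.2, and 32.0 CPM in HCME-sEV libraries 1 to 4 and 30.3, 27.8, and 34.6 CPM in LME-sEV libraries 1 to 3. These ranges overlapped, and its log2 fold change was -0.20 (standard error 0.12, FDR = 0.358, from the fit of edgeR over all genes, as for every FDR here). *Tomm22*, the central receptor that holds the complex together, had 138, 141, 135, and 130.2 CPM with HCME-sEVs and 122, 121, and 122 CPM with LME-sEVs. Every LME-sEV library was below every HCME-sEV library, but the difference did not pass (-0.16, standard error 0.078, FDR = 0.217). *Tomm70a*, the receptor of carrier proteins, had 305, 281, 275, and 285 CPM with HCME-sEVs and 257, 238, and 267 CPM with LME-sEVs. Its groups did not overlap either, and its log2 fold change was -0.17 (standard error 0.076, FDR = 0.179). In all, the groups did not overlap for 10 import genes (33.3%) that were lower with LME-sEVs, against 10.8% of all genes tested, and for 1 that was higher, against 9.49%. Among the genes whose mean count lay within the range of the import genes, these shares were 13.6% lower and 10.3% higher.

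*Tomm40* forms the channel of the outer membrane, and its level was 60.0, 88.1, 72.6, and 72.6 CPM with HCME-sEVs and 65.4, 67.9, and 62.4 CPM with LME-sEVs. HCME-sEV library 1 was the lowest and HCME-sEV library 2 the highest of all 7, and the log2 fold change of -0.17 did not pass (FDR = 0.389). Its paralog *Tomm40l* was at 24.5 ± 3.15 CPM (SD, n = 4) and 23.3 ± 2.78 CPM (SD, n = 3), with a log2 fold change of -0.077 (FDR = 0.804).

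*Tomm5*, a small subunit that helps to build TOM, fell with LME-sEVs. The gene lies on chromosome 4 from 45105208 to 45108114 of GRCm38 (GENCODE vM21, as for all genes here) on the minus strand and shares no exon with another gene. It had 57.6, 60.6, 54.8, and 51.7 CPM in HCME-sEV libraries 1 to 4 and 46.1, 37.2, and 40.2 CPM in LME-sEV libraries 1 to 3, so the groups were apart, with LME-sEV library 1 nearest to the controls. The log2 fold change was -0.45 (standard error 0.11, FDR = 0.0103). *Tomm7*, the other small subunit measured, modulates the assembly of TOM and was the most abundant import gene, at 503 ± 50.4 CPM in the 4 controls and 502 ± 15.9 CPM in the 3 LME-sEV libraries (mean ± SD). Its log2 fold change of -0.0037 had an approximate 95% interval of -0.16 to 0.15 (FDR = 0.986), and its sign depended on the normalization.

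*Samm50* is the core of the SAM complex, which inserts barrel proteins such as *Tomm40* into the outer membrane. Its values were 194, 155, 149.7, and 182 CPM with HCME-sEVs and 149.6, 152, and 149 CPM with LME-sEVs. The 3 LME-sEV libraries were close together, level with HCME-sEV libraries 2 and 3 and below libraries 1 and 4, and the log2 fold change was -0.18 (standard error 0.091, FDR = 0.245). *Tomm34*, a cytosolic helper of import that is not part of TOM, had a log2 fold change of -0.14 (FDR = 0.503).

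In the intermembrane space, *Chchd4* encodes the oxidoreductase that traps small cysteine-rich proteins, among them the small TIMs, by forming their disulfide bonds. It lies on chromosome 6 from 91462172 to 91473546 and fell with LME-sEVs. The level was 84.0, 79.3, 71.5, and 84.2 CPM in HCME-sEV libraries 1 to 4 and 65.7, 53.1, and 65.5 CPM in LME-sEV libraries 1 to 3, with no overlap and LME-sEV library 2 the lowest. The log2 fold change was -0.38 (standard error 0.10, FDR = 0.0221).

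Of the 6 small TIM chaperones, which form rings that carry hydrophobic proteins across this space, all 6 had a log2 fold change below 0. With edgeR and DESeq2 0 passed at the filter used, while *Timm10* passed with limma-voom and was the 1 with an unadjusted p under 0.05. *Timm10*, the partner of *Timm9* in the main ring, had the lowest fitted value of all 30 genes. It was at 57.1, 39.4, 37.2, and 43.6 CPM in HCME-sEV libraries 1 to 4 and 40.5, 28.7, and 27.2 CPM in LME-sEV libraries 1 to 3, so that LME-sEV library 1 lay inside the HCME-sEV range and HCME-sEV library 1 far above the rest. Its log2 fold change of -0.48 did not pass (standard error 0.15, FDR = 0.0514), and it passed without LME-sEV library 1 (log2 fold change -0.66) or without HCME-sEV library 3. It also passed with edgeR on all 7 libraries without the filter on low counts (log2 fold change -0.48, FDR = 0.00520). *Timm9* itself was at 101 ± 18.8 CPM in the 4 controls and 89.2 ± 1.60 CPM in the 3 LME-sEV libraries (mean ± SD), with a log2 fold change of -0.18 (FDR = 0.359).

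*Timm8a1*, whose human counterpart is mutated in a deafness-dystonia syndrome, was the least abundant import gene. It had 12.7, 12.6, 11.4, and 6.26 CPM with HCME-sEVs and 8.31, 7.84, and 7.15 CPM with LME-sEVs, and HCME-sEV library 4 was lower than every LME-sEV library. The log2 fold change was -0.47 (standard error 0.23, FDR = 0.233), and without that library it was -0.67 and passed. *Timm13*, which forms a ring with *Timm8a1*, showed groups that did not overlap, at 136 ± 5.20 CPM in the 4 controls and 122 ± 4.17 CPM in the 3 LME-sEV libraries (mean ± SD), and a log2 fold change of -0.15 (FDR = 0.275). *Timm8b* and *Timm10b*, relatives of *Timm8a1* and *Timm10*, had log2 fold changes of -0.17 and -0.17 and overlapping groups.

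TIM23 is the channel for proteins with a presequence, and 3 of its 5 measured subunits fell. *Timm23*, the channel subunit itself, lies on chromosome 14 from 32180162 to 32201898. It had 59.6, 48.0, 52.9, and 52.9 CPM in HCME-sEV libraries 1 to 4 and 39.4, 42.3, and 43.1 CPM in LME-sEV libraries 1 to 3, and the groups were apart. The log2 fold change was -0.36 (standard error 0.10, FDR = 0.0355). Its 3′ end is nearly identical to those of 6 other annotated genes, and an exon is shared on the same strand with *Gm23946*. None of those present in the file reached a mean of 1 count. How reads that match several of these genes were counted is not given in the sources used here, so the count of *Timm23* may be incomplete.

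*Timm50*, the receptor that receives precursors from TOM and guards the channel, lies on chromosome 7 from 28305516 to 28312072 and fell as well. Its level was 75.4, 65.2, 61.4, and 75.2 CPM with HCME-sEVs and 55.0, 50.8, and 50.6 CPM with LME-sEVs. Every LME-sEV library was below every control, and the log2 fold change was -0.41 (standard error 0.10, FDR = 0.0132). *Timm21*, which links TIM23 to TOM and to the respiratory chain, was at 27.7 ± 2.98 CPM in the 4 controls and 28.9 ± 4.66 CPM in the 3 LME-sEV libraries (mean ± SD). Its groups overlapped, with a log2 fold change of 0.054 (approximate 95% interval -0.21 to 0.32, FDR = 0.861).

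The remaining TIM23 subunits are the paralogs *Timm17a* and *Timm17b*, which serve in alternative forms of the complex. *Timm17a* lies on chromosome 1 from 135295213 to 135313778, had 164, 152, 161, and 149 CPM in HCME-sEV libraries 1 to 4 and 128, 124, and 126 CPM in LME-sEV libraries 1 to 3, with no overlap, and fell by 0.31 on the log2 scale (standard error 0.078, FDR = 0.0159). *Timm17b* lies on chromosome X from 7899357 to 7908351 and had 71.8, 63.9, 63.0, and 69.1 CPM with HCME-sEVs and 79.9, 82.2, and 73.6 CPM with LME-sEVs. Here every LME-sEV library was above every control, in the opposite direction from *Timm17a*, but the log2 fold change of 0.23 did not pass over all genes (standard error 0.091, FDR = 0.131). An exon of *Timm17b* overlaps *Gm10491* on the opposite strand, which was at 0 counts in every library.

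The ratio of the 2 paralogs within a library does not depend on how libraries are scaled. *Timm17a* over *Timm17b* was 2.29, 2.38, 2.55, and 2.15 with HCME-sEVs and 1.61, 1.51, and 1.71 with LME-sEVs, so the control libraries held more than 2 *Timm17a* tags for each *Timm17b* tag and no LME-sEV library did. On the log2 scale the ratio went from 1.22 ± 0.10 (SD, n = 4) to 0.68 ± 0.090 (SD, n = 3), a difference of -0.54. The p-value of a two-sided exact permutation test was 0.0286, the smallest that 4 libraries against 3 allow. After Benjamini-Hochberg adjustment over the 6 pairs compared in this way, it did not pass (exact permutation test, adjusted p = 0.171). This was fixed by the design, since a single pair at the smallest possible p cannot go below that adjusted value over 6 pairs.

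**Figure D3:**
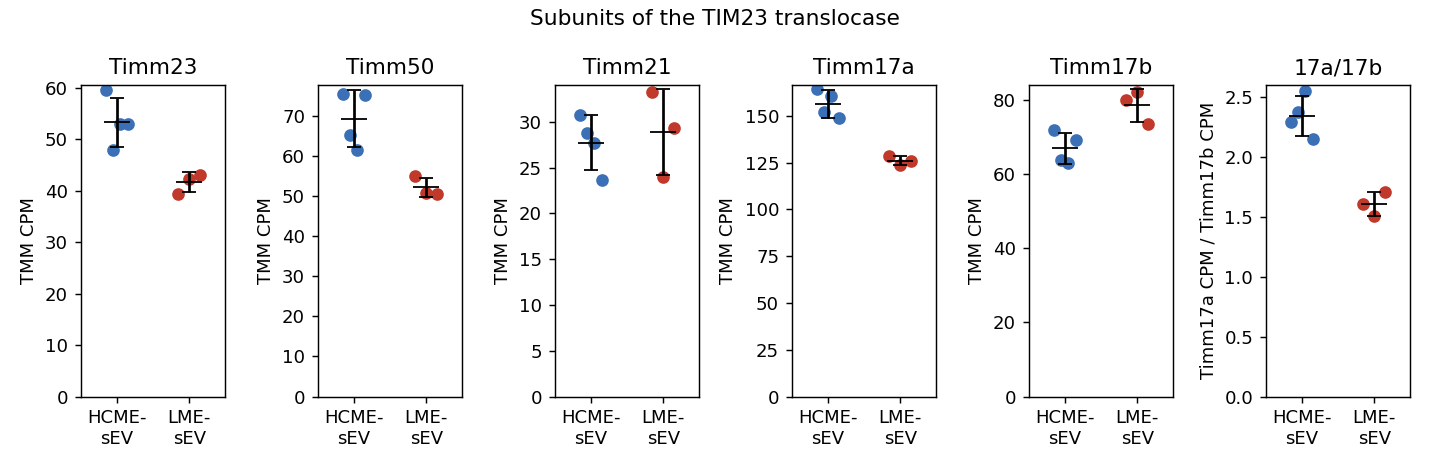
TMM-normalized CPM (y axes, from 0) of the 5 TIM23 subunits in each library, and the ratio of *Timm17a* to *Timm17b*, with HCME-sEVs in blue and LME-sEVs in red; bars are mean ± SD (n = 4 and 3). *Timm23*, *Timm50*, and *Timm17a* are lower in all 3 LME-sEV libraries, *Timm21* overlaps, and *Timm17b* is higher in all 3.

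None of the other pairs passed. *Dnajc19* over its paralog *Dnajc15* was 0.306, 0.370, 0.312, and 0.290 with HCME-sEVs and 0.287, 0.252, and 0.233 with LME-sEVs, without overlap (difference -0.31 on the log2 scale, exact permutation p = 0.0571, adjusted 0.171). For *Grpel1* over *Grpel2* the difference was -0.26 (exact permutation p = 0.114, adjusted 0.229), and for *Tomm40* over *Tomm40l* it was -0.091 (exact permutation p = 0.743, adjusted 0.743). *Timm8a1* over *Timm8b* and *Pmpca* over *Pmpcb* had differences of -0.25 and -0.28, with overlapping groups and an adjusted p of 0.377 in both (exact permutation test).

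TIM22 inserts carriers such as the ADP/ATP exchangers into the inner membrane, and 0 of its 2 measured subunits passed with edgeR, DESeq2, or limma-voom, nor had either an unadjusted p under 0.05. *Timm22*, the channel, was at 46.6 ± 6.59 CPM in the 4 controls and 42.6 ± 2.40 CPM in the 3 LME-sEV libraries (mean ± SD), with a log2 fold change of -0.14 (FDR = 0.526). *Timm29*, which holds the complex together, was at 24.7 ± 3.57 CPM in the 4 controls and 29.7 ± 2.72 CPM in the 3 LME-sEV libraries (mean ± SD), the highest fitted value among the import genes (0.26, standard error 0.13, FDR = 0.256). An exon of *Timm29* overlaps *Yipf2* on the opposite strand, which had a log2 fold change of 0.44 and an FDR of 0.169, and whether counting used the strand is not given in the sources used here.

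The motor on the matrix side pulls proteins in with the chaperone mortalin, encoded by *Hspa9*. *Timm44*, which ties mortalin to the channel, had 81.9, 81.8, 83.5, and 90.5 CPM with HCME-sEVs and 71.6, 80.4, and 68.0 CPM with LME-sEVs, without overlap. Its log2 fold change of -0.20 did not pass over all genes (standard error 0.091, FDR = 0.182). *Grpel1*, the nucleotide exchange factor of mortalin, also had groups that did not overlap, at 63.5 ± 4.28 CPM in the 4 controls and 51.8 ± 5.70 CPM in the 3 LME-sEV libraries (mean ± SD), and a log2 fold change of -0.29 (FDR = 0.0811). *Dnajc19* and *Pam16*, the J-domain protein of the motor and its regulator, had log2 fold changes of -0.21 and -0.076 (FDR = 0.263 and 0.696). Both have a gene elsewhere with a nearly identical 3′ end, which had a mean of 1.29 counts for *Dnajc19* and 0.857 for *Pam16*. On the opposite strand, exons of *Dnajc19* overlap *Fxr1* (mean 783 counts, log2 fold change -0.21). Those of *Grpel1* overlap *Tada2b* (129 counts, -0.25) and those of *Pam16* overlap *Glis2* (7.57 counts, 0.53). As the strand setting is not given, the part of these genes in the counts was not tested. In all, 13 import genes share an exon position with a gene of the opposite strand, 0 of them among the 5 that fell.

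*Pmpca* and *Pmpcb* form the peptidase that cuts off the presequence in the matrix. *Pmpcb* varied more between control libraries than any other import gene, with 50.4, 96.7, 105, and 74.2 CPM with HCME-sEVs and 71.3, 92.3, and 104 CPM with LME-sEVs. The lowest control had less than 0.5 times the level of the highest, and the log2 fold change of 0.14 was within that scatter (standard error 0.17, FDR = 0.678). *Pmpca* was at 44.9 CPM in HCME-sEV library 1, where *Pmpcb* was lowest too, and between 64.4 and 67.3 CPM in the other controls; its log2 fold change was -0.13 (FDR = 0.567). *Timmdc1*, which carries a Timm symbol but helps to assemble complex I, was at 34.8 ± 4.14 CPM in the 4 controls and 36.6 ± 3.41 CPM in the 3 LME-sEV libraries (mean ± SD), with a log2 fold change of 0.064 (FDR = 0.815).

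Across libraries, the 30 genes together summed to 3026, 2851, 2723, and 2773 CPM in HCME-sEV libraries 1 to 4 and to 2589, 2595, and 2562 CPM in LME-sEV libraries 1 to 3. The LME-sEV libraries were within 1 narrow range below all controls, and the controls were spread more widely with library 1 the highest. In HCME-sEV library 1, 25 of the 30 genes were above their own mean over all libraries, against 17 in HCME-sEV library 3 and between 6 and 10 in the LME-sEV libraries. The exceptions in library 1 included *Tomm40*, *Pmpca*, *Pmpcb*, and *Timm29*. Among controls the coefficient of variation had a median of 10.6% over the 30 genes, where counting alone would give 5.91%. It was over 2 times the counting value for 10 genes and was highest for *Pmpcb* (29.96% against 5.53%).

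**Figure D4:**
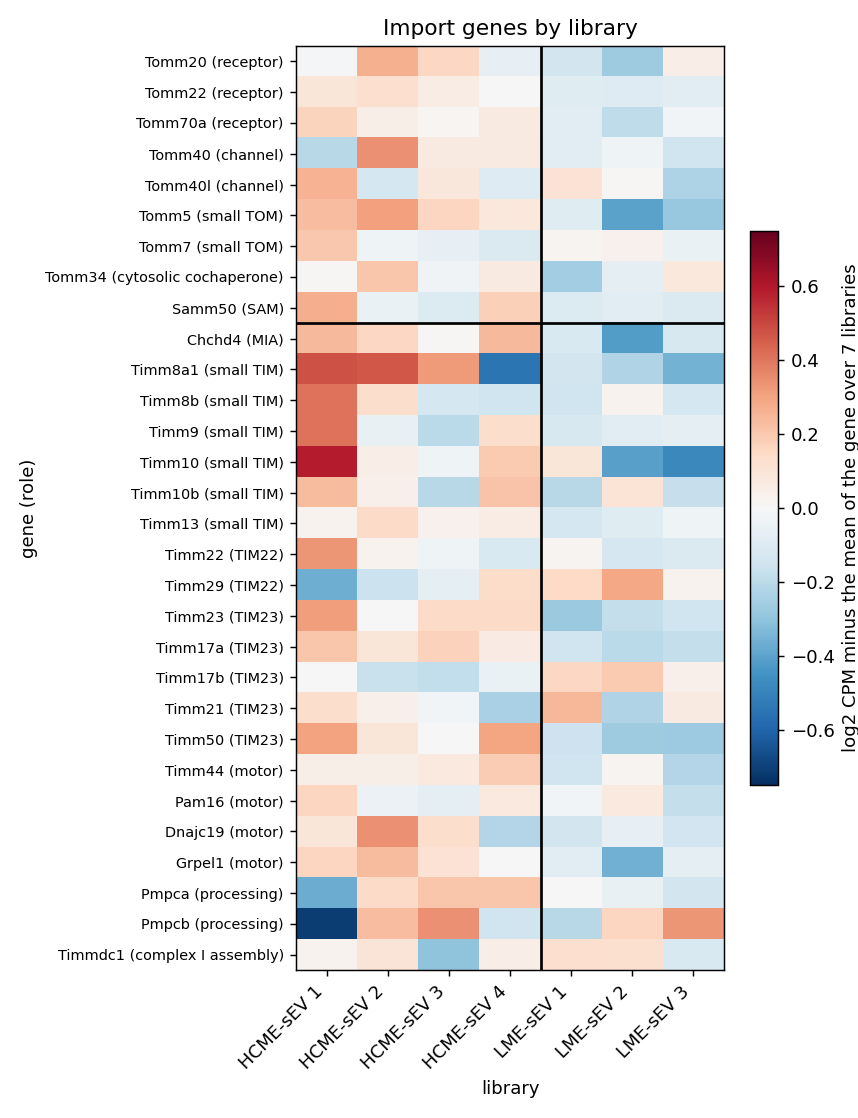
Log2 CPM of each import gene (rows, grouped by role, outer membrane genes above the horizontal line) in each library (columns), minus the mean of the gene over the 7 libraries. Red is above and blue below that mean; the HCME-sEV columns are mostly red and the LME-sEV columns mostly blue, with *Timm17b* and *Timm29* reversed and *Pmpca* and *Pmpcb* low in HCME-sEV library 1.

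Genes that work with the import machines but were not among the 30 gave a mixed picture: of 41 tested, 4 (9.76%) fell, 1 rose, and 36 did not pass. Of all genes tested, 5.21% were lower and 3.75% higher. The median log2 fold change of the 41 was -0.037. Among 13 partners of the translocases, 1 fell (7.69%, near the share of all genes tested) and 0 rose: *Hspa9* alone passed. It had 603, 579, 545, and 571 CPM with HCME-sEVs and 489.9, 480.0, and 492 CPM with LME-sEVs, with every LME-sEV library below every control (log2 fold change -0.24, standard error 0.071, FDR = 0.0398), and kept an FDR under 0.05 in 1 of 7 fits without a library. *Oxa1l*, the insertase for proteins that come from the matrix, had a log2 fold change of 0.16 (FDR = 0.426). Of 5 genes that fold imported proteins, the chaperonin pair fell. *Hspd1* was at 589.8 ± 45.7 CPM in the 4 controls and 462 ± 55.3 CPM in the 3 LME-sEV libraries (mean ± SD), a log2 fold change of -0.35 (FDR = 0.0142). Its cap *Hspe1* was at 654 ± 89.5 CPM in the 4 controls and 509 ± 29.9 CPM in the 3 LME-sEV libraries (mean ± SD), a log2 fold change of -0.36 (FDR = 0.0165). *Hscb*, a cochaperone for iron-sulfur clusters, rose, with 49.2, 59.6, 52.9, and 52.7 CPM with HCME-sEVs and 67.3, 78.2, and 68.8 CPM with LME-sEVs and a log2 fold change of 0.42 (FDR = 0.0112). These calls held in 5, 4, and 6 of 7 fits without a library.

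Of 14 proteases that process imported proteins or degrade faulty ones, 1 (7.14%) fell, near the 5.21% of all genes tested. It was *Yme1l1*, the inner membrane protease that faces the intermembrane space and cleaves *Timm17a* protein under stress. Its level was 189, 182, 168, and 162 CPM with HCME-sEVs and 138, 147, and 145 CPM with LME-sEVs (log2 fold change -0.29, standard error 0.081, FDR = 0.0277), and it passed in 2 of 7 fits without a library. Of 9 genes of MICOS, which shapes the cristae and contacts TOM and SAM, 0 passed with edgeR, DESeq2, or limma-voom, and 3 had an unadjusted p under 0.05, all lower (all genes tested: 12.3%). For comparison, 8 of 77 mitochondrial ribosomal protein genes (10.4%) fell and 0 rose, against 5.21% and 3.75% of all genes tested. Their median log2 fold change was -0.15, close to that of the import genes. Of 79 nuclear subunits of oxidative phosphorylation, most of which depend on import, 0 fell and 2 rose with edgeR (0 and 1 with DESeq2, 0 and 2 with limma-voom, and 2 and 4 at an unadjusted p under 0.05), and the median was -0.0054. The difference between these lists was not tested.

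**Figure D5:**
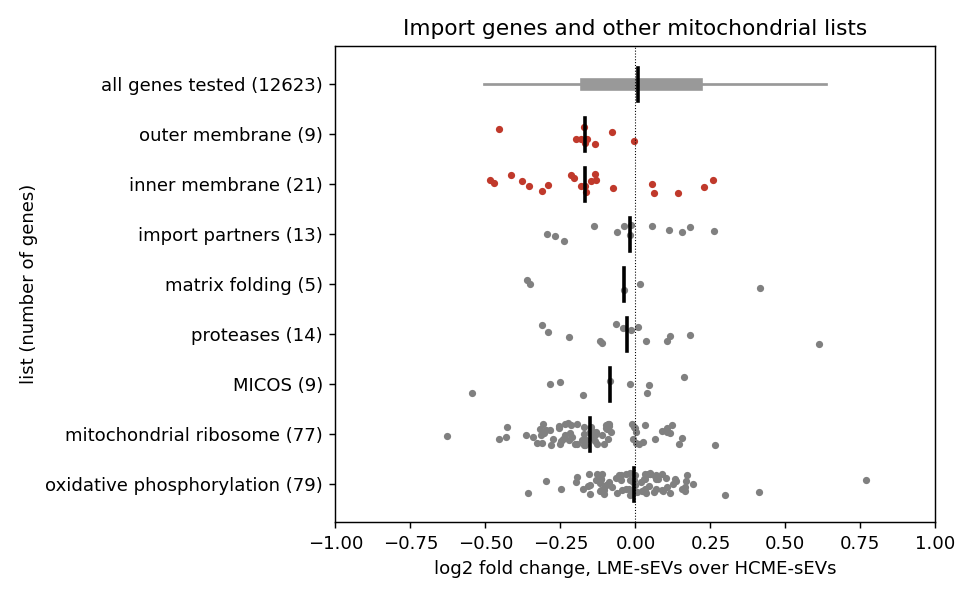
Log2 fold change (x axis, LME-sEVs over HCME-sEVs) of the genes in each list (y axis, number of genes in brackets); each point is a gene, import genes in red, and black lines are medians. For all genes tested the thick grey bar spans the 25th to 75th percentile and the thin line the 5th to 95th; the import genes and the mitochondrial ribosome have medians of -0.17 to -0.15, the other lists lie nearer to 0.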

How the data were processed

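Libraries were made with the QuantSeq 3′ kit with unique molecular identifiers (UMIs). The authors trimmed reads with cutadapt 2.10, mapped them to GRCm38 with STAR 2.5.3a, collapsed UMIs with UMI-tools 1.0.0, and deposited whole-number counts per gene from featureCounts (Subread 2.0.0), with neither normalization nor filter. The annotation release and strand setting are not given in the sources used here.

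Genes that averaged 5 counts or more were tested with edgeR 4.0.16 (R 4.3.3) on TMM-normalized counts, LME-sEVs (3 libraries) against HCME-sEVs (4), by glmQLFit and glmQLFTest without covariates. The Benjamini-Hochberg method was applied across 12623 genes, and the call was an FDR under 0.05. Standard errors were derived from the log2 fold change and the F statistic of that test. The 95% intervals were built from them with the normal distribution and are approximate. Ratios of paralogs used log2 CPM with a prior count of 2 and a two-sided exact permutation test. Genes with a nearly identical 3′ end were found by blast 2.17.0 on the final 300 bases of transcripts of GENCODE vM21 (95% identity over at least 200 bases). Test steps were run on simulated data, with a condition only on changes larger than those of the import genes. Smaller changes and false calls had no condition there.

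The genes and lists were chosen with earlier results of these data known. Every import gene is named; values in each library are given for those with an FDR under 0.05 and for 13 genes fixed as representatives of the roles, and pathway genes are named when they passed, together with *Hspa9*, *Hspd1*, *Hspe1*, and *Oxa1l*. The mitochondrial ribosomal and oxidative phosphorylation lists were taken by symbol after the values were seen, as were other values shown for single libraries. Alternatives covered the filter, the normalization, DESeq2 1.42.0, limma-voom (limma 3.58.1), the replicate number as a block, the cutoffs of the study, and leaving out each library. Replicates differed by more than counting noise in every pair, at 2.12 to 6.13 chi-square units per degree of freedom. Python 3.11.15 and matplotlib 3.10.9 were used for plots. The value of 1 marker gene is not reported here.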

Additional observations from a re-analysis of the deposited data

Results flagged for a closer look

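In the control group of 4 libraries, a library stood far from its group in 2 of 42 results, and chance alone would flag about 2.1. For *Timm8a1*, HCME-sEV library 4 was lower than the others, and the gap to the nearest library took 0.846 of the range of the group. For *Pmpca*, HCME-sEV library 1 was lower, with a gap of 0.892 of the range. The group of 3 was not examined in this way.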

How the results depend on the processing

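With other filters, normalizations, and tests, between 4 and 6 import genes were lower and 0 higher, and *Tomm5*, *Chchd4*, *Timm17a*, and *Timm50* passed in all 8 settings that kept the 7 libraries. *Timm23* did not pass without the filter, with library size only, or with DESeq2. With library size only, the median of the outer membrane genes was -0.12 and that of all genes 0.055. With the cutoffs of the study 0 import genes were called. The replicate block gave 9 import genes lower, 8 of them inner membrane genes, with 860 genes lower over all, and added *Timm8a1*, *Timm10*, *Dnajc19*, and *Grpel1*; deviations of libraries with the same number correlated at 0.072, 0.155, and 0.027, so the labels' numbers were not taken as pairs. Not every library correlated best with its own number. Leaving out each library gave 0 to 6 import genes lower, 0 to 1 of the outer and 0 to 5 of the inner membrane.

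Signs near 0 were not stable. The log2 fold change of *Tomm7* was 0.0036 without the filter, 0.0036 with filterByExpr, 0.017 with the upper quartile, 0.042 with library size only, and 0.00052 with limma-voom, and that of *Timm21* was -0.015 with the block. With a library left out, values ranged from -0.041 to 0.071 for *Tomm7*, from -0.14 to 0.021 for *Tomm40l*, from -0.043 to 0.17 for *Timm21*, from -0.016 to 0.14 for *Timmdc1*, from -0.029 to 0.28 for *Pmpcb*, and from -0.26 to 0.055 for the log2 ratio of *Tomm40* to *Tomm40l*. The cause was not tested.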
